A study of Mus musculus with 11 samples.

Results

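The rod phototransduction genes described here are 9 genes whose products carry or end the light response of rod photoreceptors: Gnat1, Gngt1, Pde6a, Pde6b, Pde6g, Cnga1, Cngb1, Sag and Grk1. They were taken from a written list by gene symbol, and the rule names no measured value, although the list was drawn up with earlier results of these data known. All 9 were among the 38393 genes in the file of each library and among the 15767 genes that reached 1 CPM (count of read pairs scaled to library size) in at least 5 libraries. RNA was taken from eyes of C57BL/6 mice (C57Bl/6J in the methods) aged 1 to 2 months after the lens and cornea had been removed, so the samples held retina, retinal pigment epithelium (RPE), choroid, sclera and ciliary body. The 5 WT libraries came from animals with intact miR-211, and the 6 miR-211−/− (KO) libraries from animals homozygous for a germline deletion of the miR-211 precursor, made by homologous recombination. The labels name no other allele and no treatment, and the design calls the libraries biological replicates. According to the methods, the KO animals were all male and the WT animals of both sexes, so that genotype and sex are partly confounded. The labels do not give the sex of each library, and sex was not separated from genotype here. The authors compared WT males and WT females in turn with the KO males and report similar gene ontology results.

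In darkness, cyclic GMP holds the cation channel of the rod outer segment open. The light-activated receptor switches on the G protein transducin, whose alpha subunit releases the brake on phosphodiesterase 6, and the fall in cyclic GMP closes the channel. A receptor kinase and arrestin then end its signal. Cones run a like cascade in which most of the subunits are encoded by genes of their own.

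The sequence of the deleted miRNA is shown because its seed (bases 2 to 8, in capitals), the stretch that pairs with target RNAs, is shared with its paralog miR-204, which KO animals keep. Both mature sequences are from RefSeq on GRCm38.p6, and they differ at 1 of their 22 bases, at position 17 from the 5′ end.
miR-211-5p (chr7:64205831-64205852, plus strand): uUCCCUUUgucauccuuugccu
miR-204-5p (chr19:22750610-22750631, plus strand): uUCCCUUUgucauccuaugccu
The complement of the seed, AAAGGGA, occurred in the 3′ end of the transcript beyond the stop codon in 0 of the 9 rod genes, against 2411 of 14517 tested genes (16.6%). The longest such end of a coding transcript in the Gencode M21 annotation was searched for each gene, with a median length of 1209 bases over all genes and between 135 (Sag) and 5699 bases (Grk1) for the rod genes. A missing match says only that these 7 letters are not in this window. Of the 13 further rod phototransduction genes listed below, Rgs9bp, Gucy2f, Slc24a1 and Pdc held 1 match each. Mir211 itself had a count of 0 in all 11 libraries, WT included, so the counts do not show its loss.

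Promoters are shown for 3 of the 9 genes. Cngb1 and Pde6b are from the 7 genes that varied closely together among libraries, and Sag followed these less closely. Whether the promoters bear on this was not tested. RefSeq windows of 250 bases before the transcription start were searched for 6 of the 9 genes. Gnat1 and Pde6g had no such window, and Pde6a was left out of the search, so the counts below do not cover these genes. Capitals mark matches on either strand to TAATCC, the preferred core of the photoreceptor factor Crx, to TGCTGA, the first part of the element bound by the rod factor Nrl, and to TATAAA, the TATA element. No matches overlapped each other in these windows.
Sag (chr1:87803430-87803679, plus strand): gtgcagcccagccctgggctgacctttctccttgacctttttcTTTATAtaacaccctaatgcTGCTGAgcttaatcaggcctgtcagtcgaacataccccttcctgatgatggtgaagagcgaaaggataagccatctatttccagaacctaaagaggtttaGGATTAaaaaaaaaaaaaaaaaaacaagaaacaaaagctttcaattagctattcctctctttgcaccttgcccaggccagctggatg
Cngb1 (chr8:95306586-95306835, minus strand): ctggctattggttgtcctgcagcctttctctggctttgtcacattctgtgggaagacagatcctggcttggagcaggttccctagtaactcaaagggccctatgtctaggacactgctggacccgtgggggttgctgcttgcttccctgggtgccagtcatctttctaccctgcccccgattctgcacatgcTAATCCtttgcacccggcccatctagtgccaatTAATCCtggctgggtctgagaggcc
Pde6b (chr5:108388123-108388372, plus strand): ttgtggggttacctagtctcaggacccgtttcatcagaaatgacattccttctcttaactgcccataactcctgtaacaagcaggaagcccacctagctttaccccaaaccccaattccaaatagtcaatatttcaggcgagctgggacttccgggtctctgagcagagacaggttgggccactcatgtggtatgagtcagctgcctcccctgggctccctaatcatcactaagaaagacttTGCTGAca
All coordinates are GRCm38. TAATCC was found in 4 of the 6 windows (Gngt1, Cnga1, Cngb1 and Sag), against 6.25% of the 32851 RefSeq windows of the same length. The 2 windows of Gngt1 and Cnga1 overlapped the gene as annotated in Gencode, and the other 4 did not. TGCTGA was found in 2 of the 6 (Pde6b and Sag), against 16.1%, and TATAAA in 2 of the 6 (Gngt1 and Sag), against 12.4%. In Cngb1 the TAATCC matches began 58 and 25 bases before the start, and in Pde6b TGCTGA began 8 bases before it. Grk1, also one of the 7 genes, held none of the 3 motifs in its window, which is not shown. These matches describe letters and are not shown to be sites.

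The libraries held 20282241 to 36317673 read pairs, and each rod gene was read with 6610 to 265213 pairs per library, so counting error is small beside the spread among animals. Together the 9 genes took 1.52% to 2.33% of all pairs. Although lenses had been removed, WT 4 stood apart by its lens transcripts, with a sum of 151666 CPM over 16 crystallin genes against 30362 in KO 3, 4107 in KO 6 and 122 to 296 in the other libraries. WT 1 had the lowest sum of 6 retinal ganglion cell markers, 183 CPM, against 540 to 781 in the others. The column names of a supplementary table of the study divide the libraries into a series named by mouse number (WT 1 and 2, KO 1 to 3) and a series named by age (WT 3 to 5, KO 4 to 6); what else differs between these series is not stated. Since whole tissue was measured, fewer rods and less RNA per rod cannot be told apart.

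Per unit of transcript length (FPKM, fragments scaled to transcript length and library size), the rod genes covered a wide range. Gnat1, the alpha subunit of rod transducin, led with a median of 3942 FPKM over the 11 libraries. Sag (rod arrestin) followed at 1776 and Pde6g, the inhibitory subunit of the phosphodiesterase, at 1274. Pde6b and Pde6a, its catalytic subunits, had medians of 627 and 411, and Gngt1, the gamma subunit of transducin, lay between them at 452. Grk1, the receptor kinase, had a median of 258, Cnga1 of 197 and Cngb1 of 73.2 FPKM, the last being the 2 subunits of the channel.

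**Figure D1:**
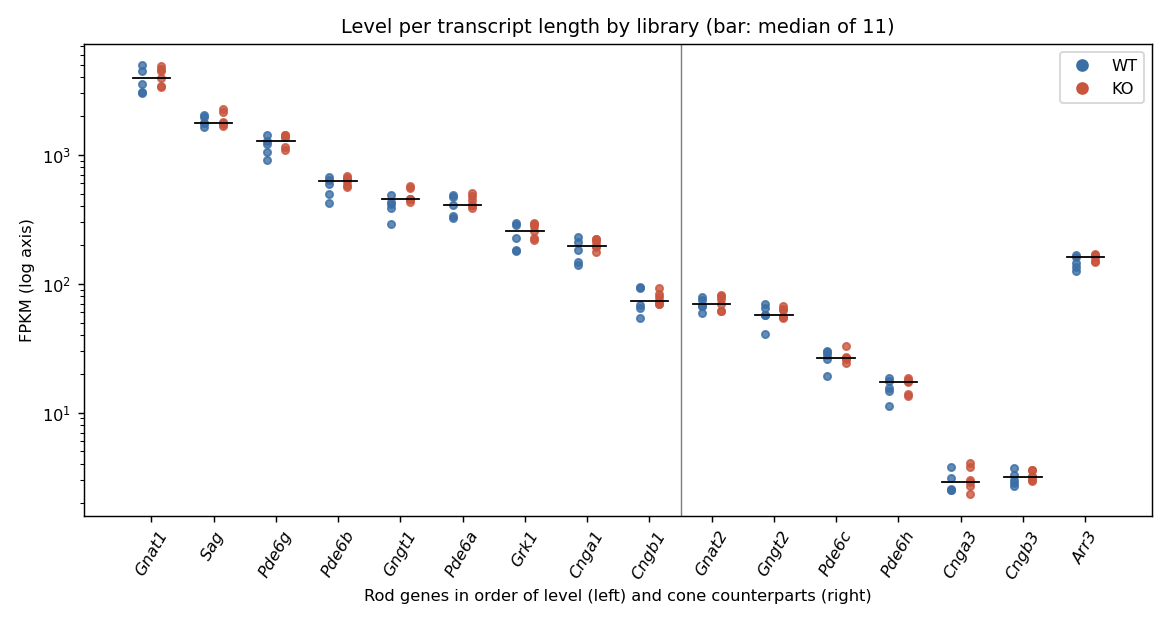
FPKM on a log axis in each library (points; blue WT, n = 5; red KO, n = 6) with the median of the 11 libraries as a bar, for the 9 rod genes in order of level and 7 cone counterparts. Gnat1 leads at a median of 3942 FPKM and Cngb1 closes the rod genes at 73.2, with WT and KO points interleaved throughout.

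This order held in every library at 7 of the 8 steps. The exception was the step from Gngt1 to Pde6a, where Gngt1 was the higher in 5 of 11 libraries and the ratio ran from 0.880 to 1.40, so these neighbours did not differ beyond their spread. Among the other steps, the median ratio was smallest from Grk1 to Cnga1, at 1.29 (1.10 to 1.42), and the lowest ratio in a single library was that of Pde6b over Gngt1, at 1.07 (median 1.44). Gnat1 exceeded Sag by 1.75 to 2.61 times, and Cnga1 exceeded Cngb1 by 2.24 to 2.79 times. Without the correction for length, only 3 of the 9 genes kept their rank.

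Transducin turns the absorption of light into a change in the cell. Gnat1 (ENSMUSG00000034837, chr9:107674474-107679712, minus strand) was read at 6689, 7716, 9261, 7541 and 10474 CPM in WT 1 to 5, and at 7255 to 10318 with a median of 8897 CPM in the 6 KO libraries. The highest and the lowest value were both from WT libraries, and the groups overlapped over the whole KO range. The fitted log2 fold change (KO over WT) was 0.07 (standard error 0.22, 95% interval -0.36 to 0.50).

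Gngt1 (ENSMUSG00000029663, chr6:3993792-3997436, plus strand) was read at 449, 576, 467, 387 and 495 CPM in WT and at 486 to 663 with a median of 524 CPM in KO libraries. WT 4 was lowest and KO 3 highest, and WT 2 and WT 5 lay inside the KO range. Among the 9 genes it had the largest log2 fold change, 0.23 (standard error 0.16, 95% interval -0.09 to 0.55), which did not pass the test (edgeR likelihood-ratio test, unadjusted p = 0.164, Benjamini-Hochberg adjusted p = 0.9999; two-sided exact permutation test, p = 0.0909).

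**Figure D2:**
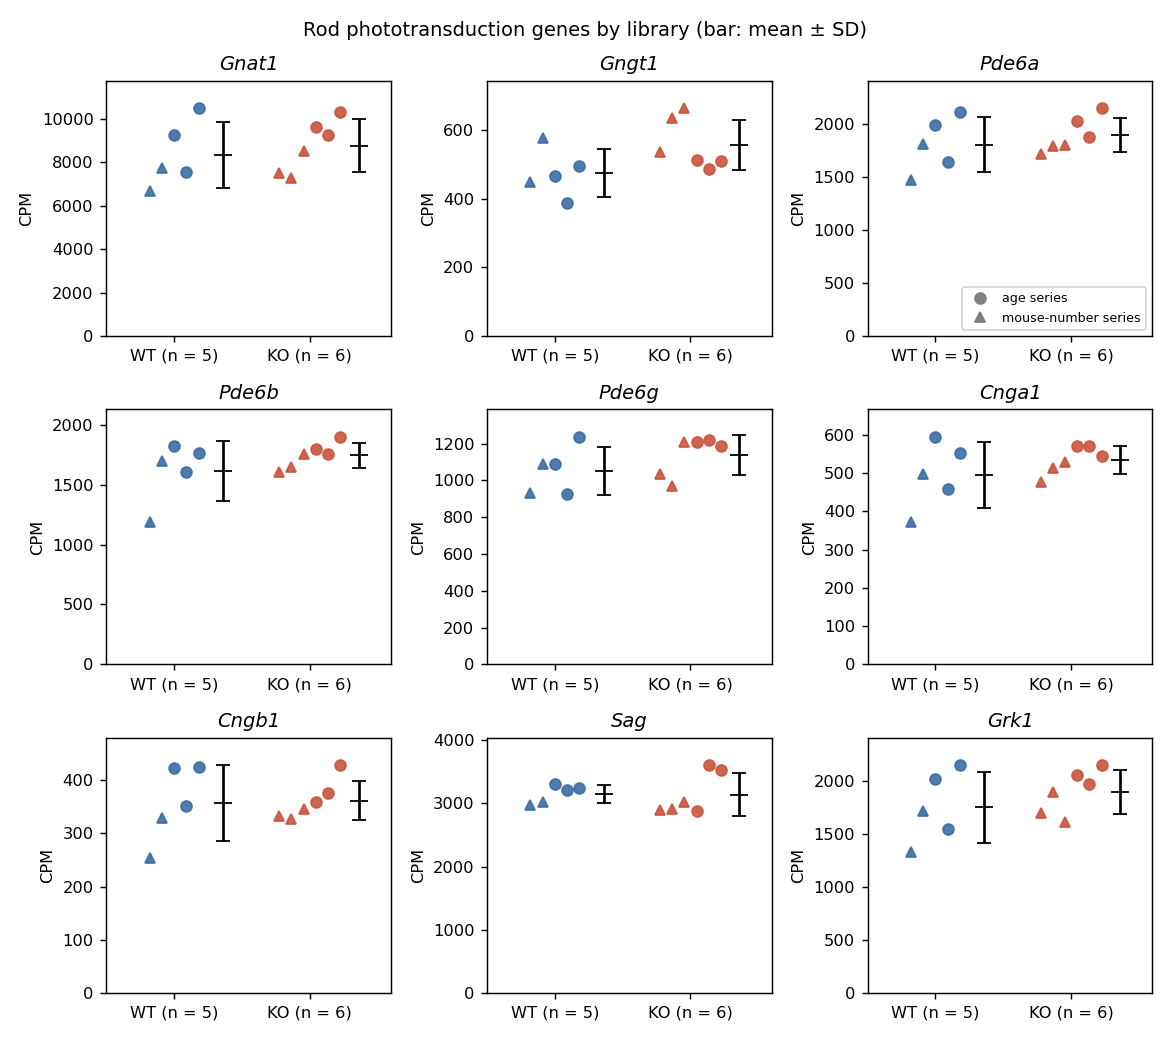
CPM of each rod gene by library (blue, WT, n = 5; red, KO, n = 6; triangles, mouse-number series; circles, age series), with the mean ± SD of each genotype as a bar. WT and KO ranges overlap for all 9 genes, and WT 1 is the lowest point for 6 of them, Pde6b at 1192 CPM among these.

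The 3 subunits of rod phosphodiesterase hydrolyse cyclic GMP or hold that activity in check. Pde6a (ENSMUSG00000024575, chr18:61220315-61289924, plus strand) was read at 1471, 1812, 1988, 1645 and 2117 CPM in WT and at 1721 to 2148 with a median of 1838 CPM in KO libraries. Pde6b (ENSMUSG00000029491, chr5:108388391-108432397, plus strand) was read at 1192, 1696, 1819, 1603 and 1761 CPM in WT and at 1604 to 1898 with a median of 1753 CPM in KO. WT 1 was the lowest library for both catalytic subunits, and for Pde6b the other 4 WT values lay between 1603 and 1819. KO exceeded WT by 0.07 and 0.11 on the log2 scale (standard error 0.18 for each). Pde6g (ENSMUSG00000025386, chr11:120447605-120453500, minus strand), the inhibitory subunit, was read at 930.0, 1088, 1087, 924 and 1237 CPM in WT and at 969 to 1221 with a median of 1197 CPM in KO libraries. WT 4 gave its lowest and WT 5 its highest value, and its log2 fold change was 0.11 (standard error 0.17).

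Within a library the ratio of the catalytic subunits, Pde6a over Pde6b, had a median of 0.702 and stayed between 0.650 and 0.798 in FPKM. Pde6g over Pde6b had a median of 2.05 (1.82 to 2.48). Neither differed between genotypes, at differences in mean log2 ratio (KO minus WT) of -0.04 and -0.01 (two-sided exact permutation test, p = 0.459 and p = 0.939, adjusted over 14 ratios 0.699 and 0.939). Both ratios were highest in WT 1, where Pde6b was low.

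The channel that cyclic GMP opens is built of Cnga1 and Cngb1. Cnga1 (ENSMUSG00000067220, chr5:72603696-72644275, minus strand) was read at 372, 498, 595, 459 and 552 CPM in WT and at 475 to 572 with a median of 537 CPM in KO libraries. Cngb1 (ENSMUSG00000031789, chr8:95239045-95306585, minus strand) was read at 254, 329, 422, 352 and 425 CPM in WT and at 328 to 428 with a median of 352 CPM in KO. WT libraries gave the lowest value of both genes and the highest of Cnga1, with SDs of log2 CPM of 0.26 and 0.31 in WT against 0.10 and 0.14 in KO. For Cnga1 KO exceeded WT by 0.11 (standard error 0.16) and for Cngb1 by 0.02 (standard error 0.17) on the log2 scale. The FPKM ratio of Cnga1 over Cngb1, 2.24 to 2.79 with a median of 2.56, was 0.09 higher on the log2 scale in KO (exact permutation test, p = 0.208, adjusted 0.699).

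Sag and Grk1 act on the activated receptor. Sag (ENSMUSG00000056055, chr1:87803680-87845158, plus strand) was read at 2977, 3019, 3300.3, 3212 and 3245 CPM in WT and at 2879 to 3602 with a median of 2963 CPM in KO libraries. Its SD of log2 CPM pooled over the genotypes, 0.12, was the smallest of the 9 genes (median 0.19; all tested genes 0.20), but this rested on WT, with an SD of 0.07 in WT and 0.15 in KO, where 5 of the other genes had a smaller one. It was the only one with a fold change under 0, at -0.01 (standard error 0.18, 95% interval -0.36 to 0.35), a sign that turned under other scalings of the libraries. Its KO values fell into 4 libraries at 2879 to 3020.1 CPM and KO 5 and KO 6 at 3602 and 3535. Grk1 (ENSMUSG00000031450, chr8:13405081-13421951, plus strand) was read at 1329.7, 1713, 2015, 1550.2 and 2147 CPM in WT and at 1609 to 2147 with a median of 1934 CPM in KO. The difference was 0.12 on the log2 scale (standard error 0.20). WT 1 was again lowest, and WT 5 and KO 6 were nearly equal at the top.

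No rod gene passed the test between genotypes: by the edgeR likelihood-ratio test 0 of 9 reached an adjusted p-value under 0.1, and over all 15767 genes 1 did (0.00634%). At an unadjusted p under 0.05 the same test called 0 of 9 (all genes 2.09%) and the exact permutation test 0 of 9 (all genes 3.38%). The quasi-likelihood test and DESeq2 also called 0 of the 9. Fold changes were positive for 8 of the 9, against 51.1% of all genes, with a median of 0.11 on the log2 scale beside 0.00 over all genes. The 95% intervals of the 9 genes reach from -0.36 to 0.55, and differences inside a gene's interval stay compatible with these 5 WT and 6 KO libraries. The direction depended on which libraries were kept. Without WT 1 the median was 0.02 and 2 of the 9 genes were lower in KO. Without WT 4 it was 0.08 and without WT 5 0.15, with 0 genes lower in each. WT 1 and WT 4 were low on average over the 9 genes, at mean log2 deviations of -0.34 and -0.16. Leaving out both, an alternative chosen after the data had been seen, was therefore bound to lower the mean KO difference. KO then lay below WT for 7 of the 9 genes, at a median of -0.03 and a range from -0.12 (Cngb1) to 0.12 (Gngt1).

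**Figure D3:**
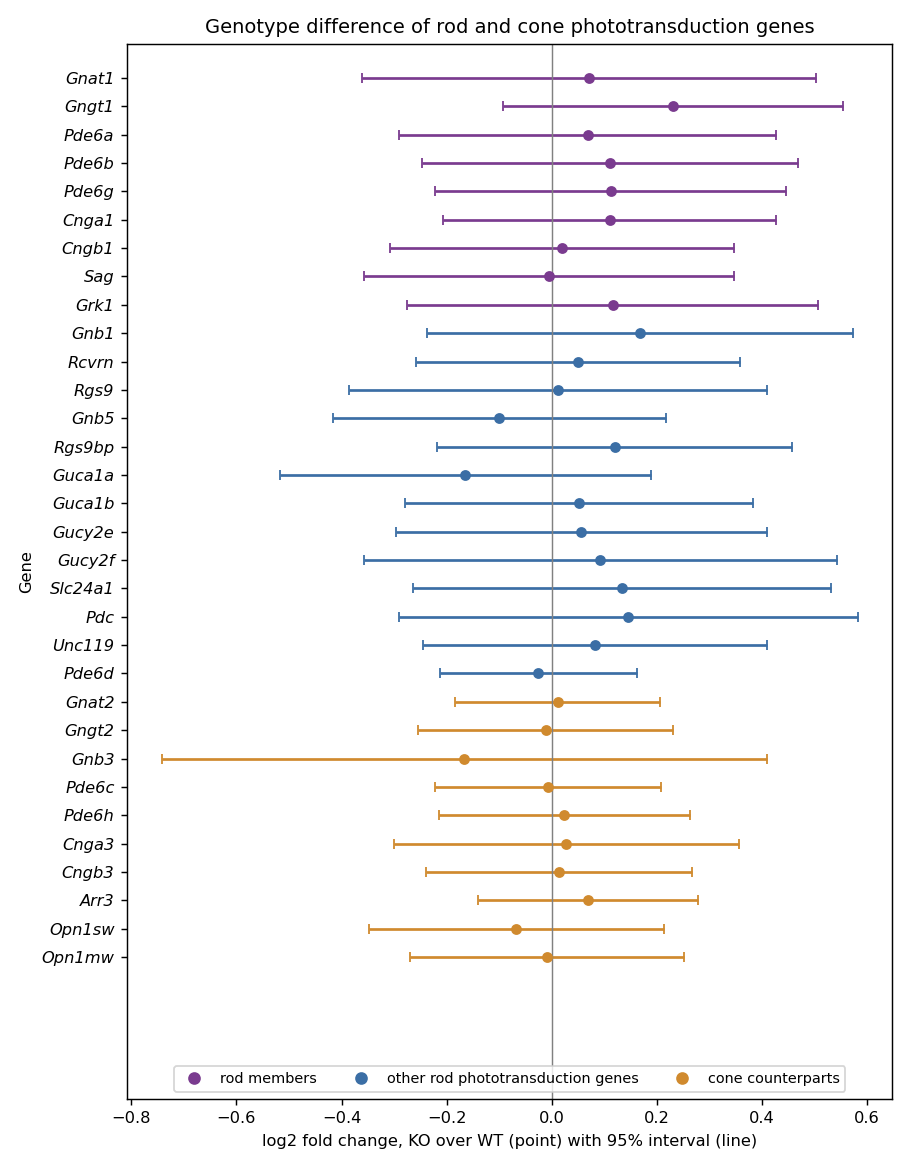
Log2 fold change, KO over WT, with its 95% interval for the 9 rod genes (purple), 13 further rod phototransduction genes (blue) and 10 cone counterparts (orange). Every interval includes 0; the point of Gngt1, at 0.23, lies farthest to the right.

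Of 13 further genes, which are the transducin beta subunit Gnb1, the GTPase-activating complex (Rgs9, Gnb5, Rgs9bp), the guanylate cyclases with their activators (Gucy2e, Gucy2f, Guca1a, Guca1b), the calcium exchanger Slc24a1, the Grk1 regulator Rcvrn and the chaperones Pdc, Unc119 and Pde6d, 0 passed the test. Fold changes were above 0 for 10 and below for 3 (Gnb5, Guca1a and Pde6d), with a median of 0.06. Gnb1 had the largest, 0.17 (standard error 0.21), and Guca1a the lowest, -0.16 (standard error 0.18). Of 11 genes for rod outer segment structure and rod fate, 0 passed and all 11 were above 0, between 0.02 for Nr2e3, a rod fate factor, and 0.25 for Rp1, a protein of the photoreceptor axoneme (standard error 0.22).

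The cone counterparts were split evenly, with 5 of 10 above 0 and 5 below and 0 passing the test. Their fold changes ran from -0.17 (standard error 0.29) for Gnb3, the cone transducin beta subunit that rod bipolar cells also express, to 0.07 (standard error 0.11) for Arr3, cone arrestin. Rod genes were far above their cone counterparts per length. The FPKM ratio within a library had a median of 80.3 for Pde6g over Pde6h, 65.0 for Cnga1 over Cnga3, 56.7 for Gnat1 over Gnat2, 24.2 for Cngb1 over Cngb3, 22.8 and 15.9 for Pde6b and Pde6a over Pde6c, 12.2 for Sag over Arr3 and 7.51 for Gngt1 over Gngt2.

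None of the 14 ratios differed between genotypes after adjustment. The smallest p-value was that of Gngt1 over Gngt2, 0.22 higher on the log2 scale in KO (two-sided exact permutation test, p = 0.130, adjusted 0.699). WT 1 was the lowest of the 11 libraries in 6 of the 8 rod-over-cone ratios, with Gnat1 over Gnat2 at 46.0 against 50.7 to 65.7 in the other libraries and Pde6a over Pde6c at 11.3 against at least 14.7. In the same library Gnb3 stood at 654 CPM, against 227 to 461 elsewhere, and the sum of retinal ganglion markers was lowest, as given above; their part in these ratios was not tested.

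**Figure D4:**
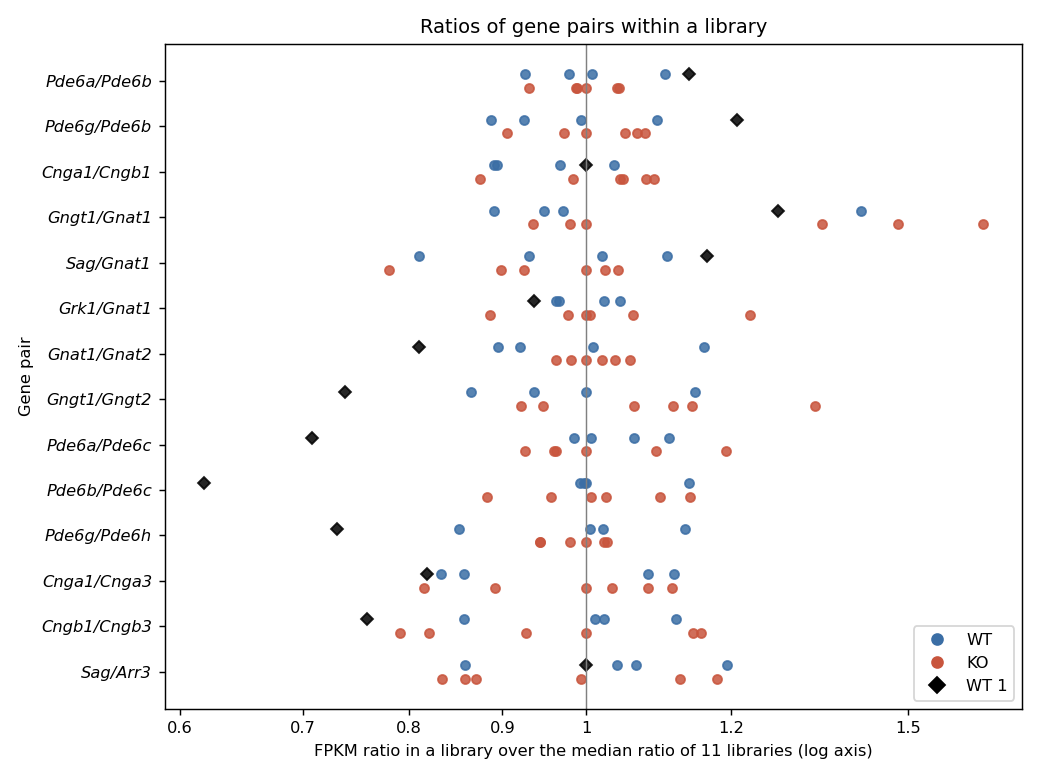
FPKM ratio of 14 gene pairs in each library, divided by the pair's median over 11 libraries, on a log axis (blue, WT; red, KO; black diamond, WT 1). WT 1 lies at the left end of most rod-over-cone pairs, and the Gngt1/Gnat1 points form 2 clusters, at 0.0876 to 0.0984 in the age series and 0.125 to 0.162 in the mouse-number series before division by the median.

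Most of the rod genes varied together from animal to animal. Over the 21 pairs among Gnat1, Pde6a, Pde6b, Pde6g, Cnga1, Cngb1 and Grk1, Pearson's r of log2 CPM across the 11 libraries was 0.65 to 0.95 with a median of 0.86, and Spearman's rank correlation was 0.61 to 0.95. The genes share libraries and scaling factors, and these 7 were set apart after their values had been seen, so the correlations describe these libraries only. Around the genotype means r was 0.65 to 0.95, and without WT 1 and WT 4, the libraries farthest from the median of the 9 genes, it was 0.34 to 0.92. Pde6a and Grk1 formed the closest pair (r = 0.95).

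Gngt1 and Sag followed the 7 genes less closely. With them Gngt1 had r of -0.07 to 0.32 and Sag of 0.39 to 0.64, so that Sag came up to the lower end of the group, and the pair of Gngt1 and Sag had r of -0.39. In the mouse-number series Gngt1 had a mean of 512 ± 90.0 CPM (SD, n = 2) over WT and 611 ± 66.4 CPM (SD, n = 3) over KO animals, against 449 ± 55.9 (SD, n = 3) and 502 ± 14.3 (SD, n = 3) in the age series. Gnat1 lay the other way, at 7202 ± 726 (SD, n = 2) and 7770 ± 674 (SD, n = 3) against 9092 ± 1473 (SD, n = 3) and 9738 ± 536 (SD, n = 3) CPM. The FPKM ratio of Gngt1 over Gnat1 did not overlap between the series, with a median of 0.139 (0.125 to 0.162) in the mouse-number libraries and 0.0945 (0.0876 to 0.0984) in the age libraries, and it was the only one of the 14 ratios without overlap. Around the means of each genotype within each series, the pairs with Gngt1 had a median r of 0.80, close to the 0.78 of the other 7 genes, while pairs with Sag had a median of 0.12.

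**Figure D5:**
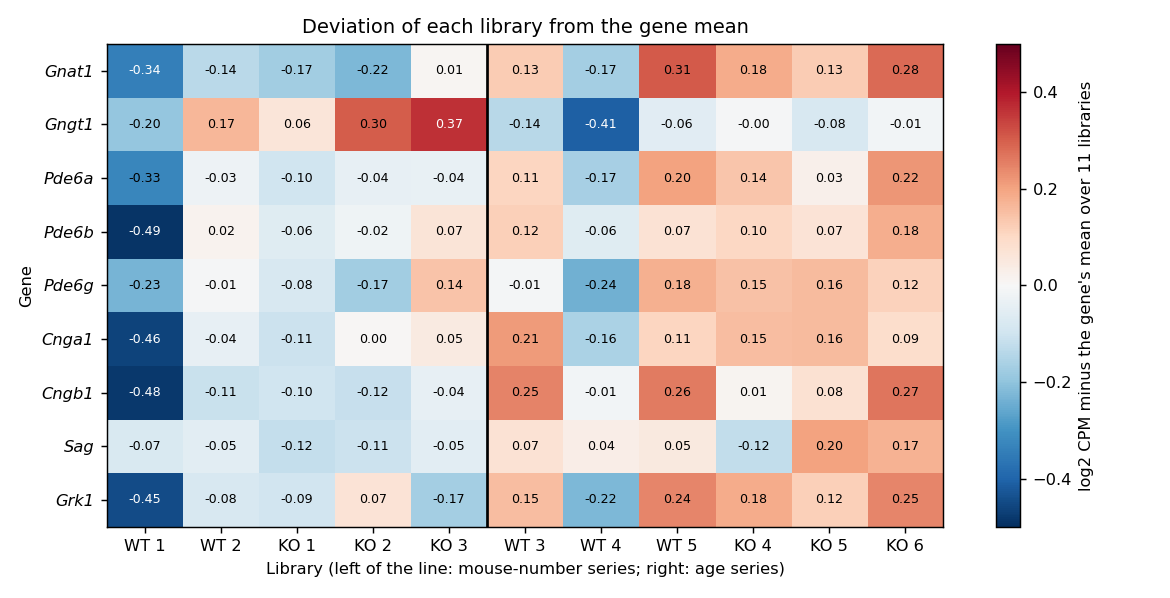
Log2 CPM of each rod gene in each library minus the gene's mean over the 11 libraries (blue, lower; red, higher), with the mouse-number series left of the line and the age series right of it. WT 1 lies between -0.49 and -0.20 for all genes but Sag (-0.07), and Gngt1 is highest in KO 3 (0.37) and KO 2 (0.30), where Gnat1 is at 0.01 and -0.22.

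With genotype and series in 1 fit, 8 of the 9 rod genes were higher in the age series and Gngt1 was lower (log2 difference -0.24, standard error 0.15). Only Cngb1 passed the test for the series, at 0.32 (standard error 0.14, edgeR likelihood-ratio test, adjusted p = 0.0770), against 36.3% of all genes. In this fit the genotype difference was 0.01 to 0.20 on the log2 scale, and 0 of 9 passed. Fitted within each series, it was 0.25 (standard error 0.21) and 0.16 (standard error 0.20) for Gngt1 and -0.03 (standard error 0.21) and 0.04 (standard error 0.30) for Sag in the mouse-number and the age series. The interaction of genotype and series passed for 0 of the 9 genes, against 0.019% of all genes.

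Markers of other tissues differed among the libraries and, for some tissues, in direction between the genotypes. All 8 skeletal muscle markers (median log2 fold change -0.56) were lower in KO, the opposite of the sign of 8 of the 9 rod genes. So were the 6 adipocyte (-1.97), 13 lens (-2.19) and 5 blood markers (-0.63) that passed the filter. All 6 retinal ganglion markers were higher (0.25). Cornea and conjunctiva (3 above 0, 3 below), rod bipolar (4 and 4), RPE (2 and 3) and Müller glia markers (2 and 4) were mixed. The sum of the lens markers was highest in WT 4, at 151666 CPM. The median of that sum over libraries was 185 CPM in WT and 217 CPM in KO, the other way from the fold changes. None of these markers passed at an adjusted p under 0.1 (edgeR likelihood-ratio test). At an unadjusted p under 0.05 that test called 4 lens and 2 adipocyte markers (all genes 2.09%). The exact permutation test called 0 lens markers and 1 adipocyte marker (all genes 3.38%). The sum of 8 skeletal muscle markers ran from 1110 to 8878 CPM in WT and from 828 to 9527 in KO libraries, that of 8 adipocyte markers from 13.2 to 431 and from 12.1 to 211, and that of 6 cornea and conjunctiva markers from 1196 to 7679 and from 1609 to 8886. Against the mean deviation of the 9 rod genes over the 11 libraries, the muscle markers had r of -0.83 to -0.55. The adipocyte markers that passed the filter had -0.85 to -0.73. The 6 retinal ganglion markers had 0.82 to 0.90, or 0.55 to 0.78 without WT 1. The 8 rod bipolar markers had 0.32 to 0.94, or 0.49 to 0.87 without WT 1. For the 6 Müller glia markers r was -0.65 to 0.81, or -0.39 to 0.86 without WT 1. The 5 RPE markers that passed the filter had -0.26 to 0.64, or 0.16 to 0.62 without WT 1. For the lens markers that passed the filter r was -0.26 to 0.03, and for the blood markers -0.20 to -0.06. For the cornea and conjunctiva markers it was -0.82 to 0.42. No muscle or cornea marker was at 0 in a library, and 2 of the 8 adipocyte markers were at 0 in at least 1. The sums of the 6 RPE markers and the 6 Müller glia markers stayed within 1163 to 1720 and 3419 to 4032 CPM. The part of these tissues in the values of the rod genes was not tested.

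Of the 15767 genes, 7.29% had an r above 0.8 with the mean deviation of the 9 rod genes, as had 6 of the 13 further rod genes, 9 of the 11 structure and fate genes and 0 of the 10 cone counterparts. The cone values depended on WT 1: without it their median r went from 0.09 to 0.51, that of Gnb3 from -0.27 to 0.70, and Gnat2 reached 0.804. Outside the lists, the genes most like it over the 11 libraries were Sema3e (r = 0.98), Elmod1 (0.97), Enpp5 (0.97), Zfp317 (0.97), ENSMUSG00000058253 (0.97), Tmem136 (0.97), Acsl6 (0.97), Ric3 (0.96), Nrip3 (0.96) and Rtn3 (0.96). Among the further rod genes, Pdc did not follow the group (r = -0.07), and its CPM ranged from 748 to 1652 in KO libraries.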

How the data were processed

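RNA from 5 WT and 6 KO eyes was read in pairs of 100 bases. The authors assigned the reads to Gencode M4 genes with RSEM 1.2.19 (per their processing notes) and deposited, for each gene of each library, the expected count, which is not normalized and can be fractional, and FPKM values, scaled by RSEM to effective length and mapped fragments. Expected counts were rounded, genes reaching 1 CPM in 5 or more of the 11 libraries were kept, and edgeR 4.0.16 in R 4.3.3 was used for TMM scaling, dispersions and the likelihood-ratio test (genotype only; Benjamini-Hochberg threshold 0.1). CPM are per TMM-scaled library size, with a prior count of 2 on the log2 scale. Two-sided exact permutation tests took all 462 assignments of the labels. Ratios used log2(FPKM + 0.1). The tests were run on simulated counts with the same dispersion for every gene, large changes in some genes and no series effect. That check does not show how the tests do at differences as small as those of the rod genes. At the lowest depth 1 CPM is 20.3 read pairs. The permutation p-values rest on the spread between these animals. Those of the likelihood-ratio test, like the standard errors and 95% intervals, use dispersions estimated with the help of all genes. They therefore do not measure a gene's own spread alone. The smallest unadjusted p of the 9 rod genes was 0.164 by the likelihood-ratio test, 0.0788 by the quasi-likelihood test and 0.0513 by DESeq2. Symbols matched 95.4% of identifiers (Gencode M21, GRCm38, the assembly of the authors' release). Series were assigned by proportion of counts to columns of the study's supplementary table. Replicate numbers did not pair WT and KO libraries. The alternatives were another test or tool (quasi-likelihood, DESeq2 1.42.0, limma 3.58.1 on FPKM), other scalings and filters, a replicate block, series and left-out libraries. Members and lists were chosen with earlier results of these data known. All genes of the rod and cone phototransduction lists could be named, of other lists those with the lowest and highest fold change, and the 10 genes most like the members. 1 gene of the rod list is not reported here.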

Additional observations from a re-analysis of the deposited data

Results flagged for a closer look

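Of 46 sets of values tested (9 genes and 14 ratios in each genotype), 1 held a library farther from the others than the limit for sets of that size, and chance alone gives about 1 in 20. The FPKM ratio of Pde6b over Pde6c was 14.09 in WT 1, against 22.64 to 25.95 in the other 4 WT libraries, a gap of 0.721 of the whole WT range.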

How the results depend on the processing

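The count of the 9 rod genes that passed the test was 0 under every alternative run, while over all genes the quasi-likelihood test called 0, DESeq2 2 and the fits with series or with the replicate block 10 each. The number of rod genes lower in KO was 1, but 0 with upper-quartile scaling, without TMM, with TMM computed without crystallin genes, with limma on log2 FPKM and with series as a covariate. In these fits Sag turned to 0.00625, 0.0430, 0.00556, 0.0432 and 0.00801 on the log2 scale, in the same order. With the replicate block, 2 genes were lower and Cngb1 turned to -0.0129; same-numbered libraries correlated at -0.332 to 0.633, so the numbers do not pair them. Without WT 1 and WT 4 together (chosen after seeing the data), 7 were lower, with Gnat1 at -0.0603, Pde6a at -0.0546, Pde6b at -0.00956, Cnga1 at -0.0331, Cngb1 at -0.115 and Grk1 at -0.0423. Ordered by CPM, 3 of the 9 genes kept their rank. Leaving out 1 library at a time gave 0 to 2 genes lower in KO, 0 to 1 gene with a permutation p under 0.05 (1 without WT replicate 2), a median SD of 0.154 to 0.202, and log2 differences of -0.0810 to 0.0902 for Cngb1 and -0.0489 to 0.0181 for Sag. The log2 ratio differences then ran from -0.0559 to 0.0559 for Pde6g over Pde6b, from -0.00234 to 0.0921 for Grk1 over Gnat1, from -0.0298 to 0.132 for Pde6a over Pde6c, from -0.0227 to 0.197 for Pde6b over Pde6c, from -0.0176 to 0.140 for Pde6g over Pde6h and from -0.0521 to 0.0878 for Cngb1 over Cngb3. The cause of these changes was not tested.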
